A study of Mus musculus with 6 samples.

Results

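Antiviral restriction factors are host proteins that each block a step of virus replication, and 10 of their genes were followed in mouse liver: Rsad2 (which encodes viperin), Cmpk2, Ifitm3, Bst2, Samhd1, Trim30a, Zc3hav1, Apobec3, Isg20 and Xaf1. These 10 genes were chosen with earlier results of these data known. Their probes were then found by name in the gene annotation of the array, without use of any measured value. All 10 were present among 37074 genes on the array, with 15 probes between them. The brightest probe of each was well above background on all 6 arrays, so all 10 were among the 22337 genes bright enough to be tested. Liver RNA was compared between 3 arrays of L1-Tg mice and 3 arrays of wild-type (WT) littermates, with each array holding the pooled RNA of 2 or 3 males on a control-fat diet (CFD). L1-Tg mice are hemizygous for a transgene, B6;D2-Tg(APOE-NPC1L1)20Lqyu/J, in which the APOE promoter drives human NPC1L1, a cholesterol transporter, in hepatocytes. Both genotypes come from crosses to C57BL/6J after a backcross of at least 8 generations. The mice of the study were 6 to 12 weeks old, apart from an older set of mature adults, and the age of the array mice is not stated. All L1-Tg mice are of 1 transgenic line, so the insertion site and the protein cannot be told apart here. The probe for mouse Npc1l1, well above background on 3 of the 6 arrays, does not check the human transgene.

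Most of these genes belong to the set that type I interferon switches on. Interferon binds its receptor on the cell surface, kinases bound to the receptor pass the signal on, and the interferon-stimulated response element (ISRE) and the gamma-activated sequence (GAS) are the promoter elements through which target genes respond. The products then act at different steps: IFITM3 in the endosome where viruses fuse, APOBEC3 and SAMHD1 on viral DNA synthesis, ZAP (Zc3hav1) and ISG20 on viral RNA, viperin on the viral polymerase and other steps, and tetherin (Bst2) on the release of particles. In liver, hepatocytes, Kupffer cells and endothelial cells can all express them.

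Rsad2 and Cmpk2 lie side by side and point away from each other, with 12.8 kb between their RefSeq start sites (GRCm38.p6), and they are shown first as the neighbouring pair of the 10. The sequences below are RefSeq promoter windows, 250 bases before to 50 after the start, for this pair and for 3 other genes of the 10 that hold the ISRE core. Capitals mark matches to that core, 2 copies of GAAA with any 2 bases between them, on either strand.
Rsad2 (chr12:26456403-26456702, minus strand): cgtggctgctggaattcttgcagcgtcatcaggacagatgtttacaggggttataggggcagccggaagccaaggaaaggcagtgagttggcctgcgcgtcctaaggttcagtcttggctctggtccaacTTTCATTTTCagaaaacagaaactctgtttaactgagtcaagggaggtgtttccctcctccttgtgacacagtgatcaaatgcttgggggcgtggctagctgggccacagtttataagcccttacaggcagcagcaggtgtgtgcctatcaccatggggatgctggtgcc
Cmpk2 (chr12:26468965-26469264, plus strand): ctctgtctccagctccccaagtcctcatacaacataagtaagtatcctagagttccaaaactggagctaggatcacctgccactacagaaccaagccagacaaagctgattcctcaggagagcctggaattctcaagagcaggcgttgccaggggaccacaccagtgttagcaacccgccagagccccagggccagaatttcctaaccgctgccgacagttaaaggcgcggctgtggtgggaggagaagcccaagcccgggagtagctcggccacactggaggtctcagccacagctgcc
Trim30a (chr7:104465144-104465443, minus strand): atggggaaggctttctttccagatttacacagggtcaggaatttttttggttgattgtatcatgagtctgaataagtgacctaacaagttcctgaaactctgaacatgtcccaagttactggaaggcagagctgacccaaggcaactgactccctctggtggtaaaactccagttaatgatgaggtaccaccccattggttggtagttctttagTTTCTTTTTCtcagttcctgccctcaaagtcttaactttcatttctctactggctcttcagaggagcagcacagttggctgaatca
Bst2 (chr8:71537423-71537722, minus strand): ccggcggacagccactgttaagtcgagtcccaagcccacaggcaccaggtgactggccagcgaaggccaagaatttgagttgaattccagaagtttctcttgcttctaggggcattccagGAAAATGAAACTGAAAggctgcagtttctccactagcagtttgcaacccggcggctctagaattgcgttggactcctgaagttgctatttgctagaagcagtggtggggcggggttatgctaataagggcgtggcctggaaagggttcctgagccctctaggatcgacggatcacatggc
Ifitm3 (chr7:141010695-141010994, minus strand): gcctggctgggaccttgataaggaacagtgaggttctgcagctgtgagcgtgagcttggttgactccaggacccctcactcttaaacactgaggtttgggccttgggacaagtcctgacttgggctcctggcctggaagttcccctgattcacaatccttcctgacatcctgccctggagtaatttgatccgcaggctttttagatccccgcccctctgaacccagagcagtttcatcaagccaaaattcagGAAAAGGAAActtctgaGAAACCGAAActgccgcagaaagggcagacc
The Rsad2 window held 1 match, TTTCATTTTC, 120 bases before the start, and the Cmpk2 window held 0. The Bst2 window held 2 matches that overlap each other, GAAAATGAAA and GAAACTGAAA, the first of them 130 bases before the start. In the Ifitm3 window both matches, GAAAAGGAAA and GAAACCGAAA, began 3 and 20 bases after the start. Trim30a has 2 windows in the table, and each held 1 match of the same letters, TTTCTTTTTC. A match was also present in the first Apobec3 window, TTTCCCTTTC, 140 bases before the start, and none was found in the windows of Xaf1, Isg20, Samhd1 and Zc3hav1. Thus 5 of the 10 genes held the core in at least 1 window, where 3.99% of 27025 genes and 3.44% of 32851 windows did. The GAS core, TTCNNNGAA, was found for 4 of the 10 genes (Ifitm3, Bst2, Samhd1 and Isg20) and for 9.55% of all genes, and in Ifitm3 and Bst2 its match overlapped an ISRE match. A match is a description of these letters and not a measured binding site.

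As a group, 9 of the 10 genes had a higher mean in L1-Tg than in WT livers and 1, Apobec3, had a lower mean, where 42.9% of all genes tested had a log2 difference above 0. The median log2 difference of the 10 genes was 0.92, and that of all genes tested was -0.03. Signals are given as log2 of the processed signal minus log2 of the 75th percentile of the array, so 0 is the level of that percentile on the same array, and the 3 values of a genotype are always given in the order of its replicates, 1 to 3. In 8 of the 10 genes the 3 L1-Tg values all lay above the 3 WT values, where 7.21% of all genes tested were apart in that direction, 8.71% in the other and 15.9% in either. The same 8 genes had an unadjusted p under 0.05 in limma, all higher in L1-Tg mice, where 4.51% of all genes tested were higher, 4.38% lower and 8.89% either. They also passed the difference index of the study's methods, the difference of means over the sum of the SDs, above 0.7, where 11.7% of genes tested were higher and 26.5% passed in either direction, and 8.61% and 30.3% of all genes, dim ones included. After Benjamini-Hochberg adjustment over all genes, however, 0 of the 10 genes passed 0.05 in limma, where 0.13% of all genes did, and the methods' t-test also passed 0 of them after adjustment and 7 before. The 10 genes were proposed with earlier results of these data in view, so these counts describe them and are not independent evidence of a direction.

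**Figure D1:**
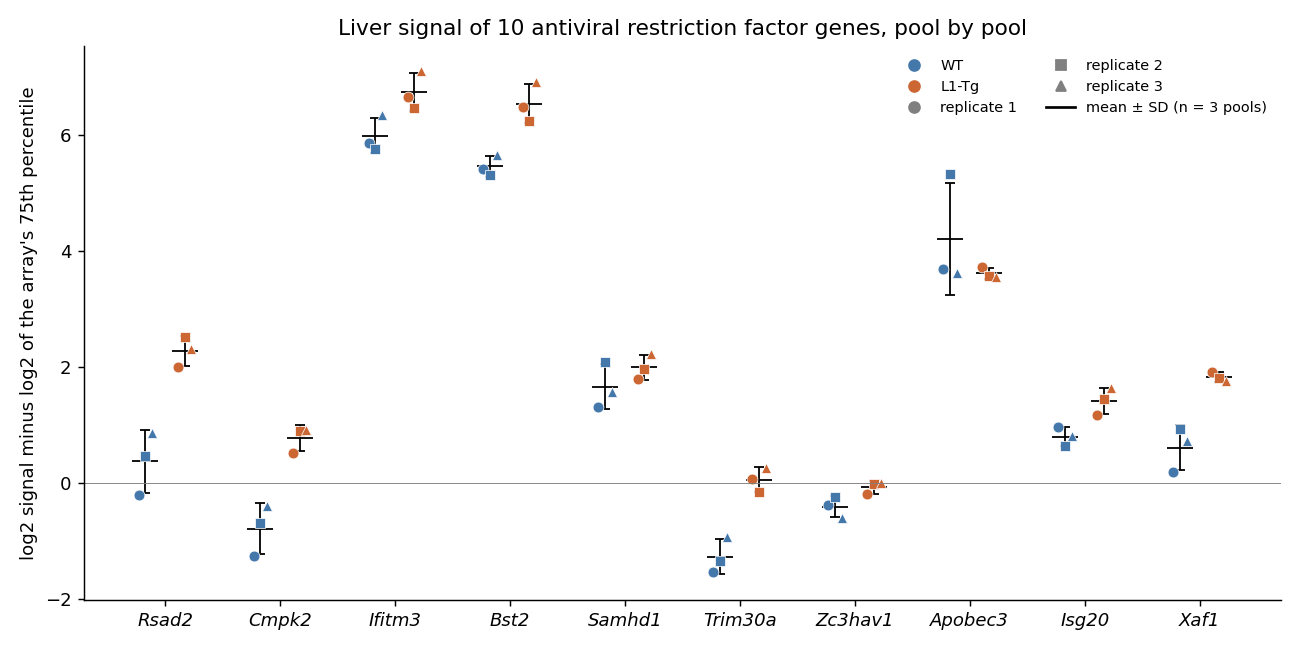
Log2 signal of each of the 10 genes on every array, relative to the array's 75th percentile, with WT in blue, L1-Tg in orange, marker shapes for the replicate, and bars for the mean ± SD of 3 pools. The orange points lie above all blue points for 8 genes, while Samhd1 and Apobec3 overlap, and for Apobec3 WT replicate 2 stands at 5.32.

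Rsad2 encodes viperin, a radical SAM enzyme that turns CTP into a chain-terminating nucleotide. Its log2 signal was 2.01, 2.52 and 2.31 in L1-Tg pools and -0.20, 0.47 and 0.86 in WT pools. Every L1-Tg pool thus lay above every WT pool, by at least 1.14, and the WT pools were more spread (SD 0.54, n = 3) than the L1-Tg pools (SD 0.26, n = 3). This amounted to a log2 difference of 1.90 (standard error, SE, 0.29, 95% interval 1.21 to 2.59), a 3.74-fold higher signal, with an adjusted p of 0.179 in limma. Only 0.278% of all genes tested had a difference as large or larger in that direction, which placed Rsad2 at rank 62.

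Cmpk2 encodes a mitochondrial kinase that phosphorylates CMP and UMP, upstream of the CTP that viperin uses. L1-Tg pools gave log2 signals of 0.52, 0.90 and 0.92, and WT pools gave -1.26, -0.69 and -0.40. The groups did not overlap, and WT replicate 1 was the lowest pool, as for Rsad2. The log2 difference was 1.56 (SE 0.24, 95% interval 0.99 to 2.14, adjusted p = 0.179 in limma), or 2.95-fold. A second Cmpk2 probe gave 0.10, 0.65 and 0.60 against -1.38, -0.74 and -0.58, with a log2 difference of 1.35 (SE 0.25).

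Of 22318 genes ranked by their Pearson correlation with Rsad2 over the 6 arrays, Cmpk2 stood at rank 1 (r = 0.998). This r spans both genotypes, so it holds the difference between them as well as the order of the pools within each, and it carries no p. Within WT mice both genes were lowest in replicate 1 and highest in replicate 3, and within L1-Tg mice both were lowest in replicate 1. The difference of Rsad2 exceeded that of Cmpk2 by 0.34 on the log2 scale, with an exact two-sided permutation p of 0.1, the smallest that 3 against 3 pools allow. It was 0.47 with the normexp background correction and 0.45 with the mean of all probes. The genes are read by different probes, and whether these respond alike to RNA was not tested. Among the 3 genes on either side of the pair in the reference order, Rnf144a was the only one with a matched probe, and its log2 difference was 0.16 (SE 0.17, adjusted p = 0.752 in limma). The others, 4930549C15Rik, Mir6538, Gm46344, 1700020D12Rik and 4933409F18Rik, were not analysed here.

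**Figure D2:**
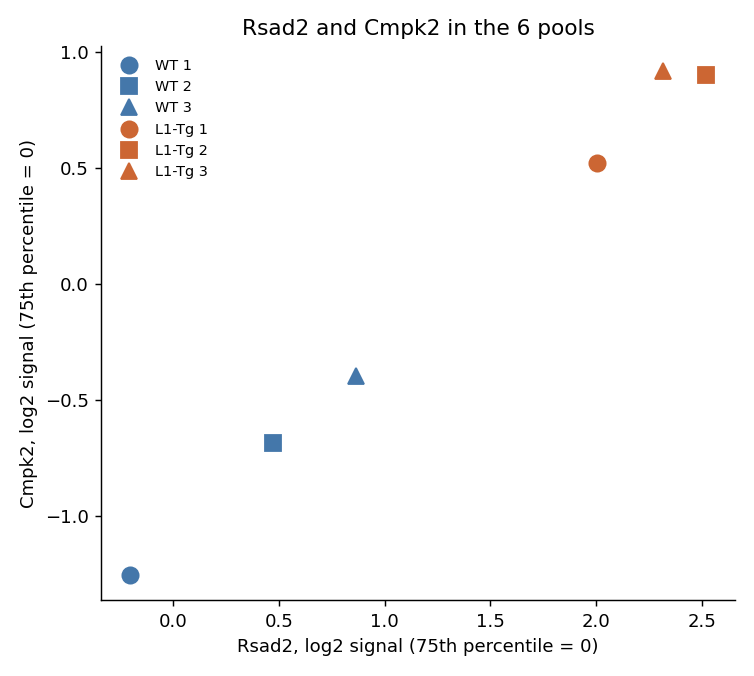
Log2 signal of Cmpk2 (vertical axis) against that of Rsad2 (horizontal axis) in the 6 pools, both relative to the array's 75th percentile. The 3 L1-Tg pools (orange) lie at higher values of both genes than the 3 WT pools (blue), with WT replicate 1 lowest in both.

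Trim30a encodes a TRIM-family protein induced by interferon and known as a brake on NF-kB signaling. It stood at 0.07, -0.16 and 0.27 in L1-Tg pools and at -1.53, -1.34 and -0.93 in WT pools (log2 signal). The nearest pools of the groups were 0.77 apart. Trim30a differed by 1.33 on the log2 scale (SE 0.19, adjusted p = 0.153 in limma), or 2.51-fold, with the smallest p of the 10 genes. The Trim30 genes are closely related, and whether the probe also takes up RNA of a paralog was not tested.

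Xaf1 encodes a protein that binds the apoptosis inhibitor XIAP and is induced by interferon. The probe that stands for it gave 1.92, 1.81 and 1.77 in L1-Tg pools against 0.19, 0.93 and 0.73 in WT pools. These groups did not overlap, and the L1-Tg pools were close together (SD 0.08, n = 3), which gave the highest difference index of the 10 genes, 3.37. Its log2 difference was 1.22 (SE 0.20, adjusted p = 0.199 in limma), or 2.33-fold. A second Xaf1 probe did not show this: its log2 signals were -0.03, -5.31 and 2.67 in L1-Tg mice and 1.03, 0.52 and 0.66 in WT mice. On L1-Tg replicate 2 that probe was not well above background and lay at least 5.27 below every other array, and of 29441 probes tested on the 6 arrays it was the single one with an array so far below the rest. Its log2 difference was -1.63 with an SE of 1.85, and when all probes of a gene were averaged the Xaf1 difference turned to -0.20. The Xaf1 value thus rests on 1 of its 2 probes.

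Bst2 encodes tetherin, a membrane protein that holds budding virus particles on the cell surface. Log2 signals of 6.48, 6.24 and 6.91 in L1-Tg pools stood against 5.42, 5.31 and 5.67 in WT pools. The groups were 0.57 apart at their nearest pools. Bst2 differed by 1.08 (log2, SE 0.19, adjusted p = 0.256 in limma), or 2.11-fold.

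Ifitm3 encodes a membrane protein that hinders the fusion of virus and endosome. The mean of the 10 spots of its probe was 6.67, 6.47 and 7.11 in L1-Tg pools and 5.87, 5.77 and 6.34 in WT pools. The lowest L1-Tg pool was only 0.13 above the highest WT pool, and without scaling of the arrays the groups overlapped, which left 7 genes apart. For Ifitm3 the log2 difference came to 0.76 (SE 0.22, adjusted p = 0.470 in limma), or 1.69-fold. In Bst2 and Ifitm3 alike, replicate 3 was the highest pool and replicate 2 the lowest in both genotypes.

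Isg20 encodes an exonuclease that degrades single-stranded RNA. Its log2 signal was 1.18, 1.45 and 1.64 in L1-Tg pools and 0.96, 0.64 and 0.81 in WT pools, with no overlap. Its difference of 0.62 (log2, SE 0.15, adjusted p = 0.395 in limma) was matched by a second Isg20 probe, which gave 0.60 (SE 0.13), also with no overlap.

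Zc3hav1 encodes ZAP, a zinc finger protein that binds CpG-rich viral RNA and brings it to decay. The L1-Tg pools gave -0.19, -0.02 and 0.01 and the WT pools -0.37, -0.23 and -0.60. The groups were 0.04 apart, the narrowest gap of the 8 genes that did not overlap. With these values the difference was 0.34 (log2, SE 0.13, 95% interval 0.03 to 0.64, adjusted p = 0.544 in limma).

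Samhd1 encodes a triphosphohydrolase that depletes the dNTPs that reverse transcription needs. Its brighter probe gave 1.80, 1.97 and 2.23 in L1-Tg pools and 1.32, 2.09 and 1.58 in WT pools. These groups overlapped, since WT replicate 2 lay above 2 of the 3 L1-Tg pools. Samhd1 differed by 0.33 (log2, SE 0.22, 95% interval -0.20 to 0.86, adjusted p = 0.656 in limma), and this ran from 0.16 without WT replicate 1 to 0.54 without WT replicate 2. The other Samhd1 probe, annotated to a different transcript, gave 0.45, 0.34 and 0.54 against -0.36, 0.08 and 0.20, with no overlap and a log2 difference of 0.47 (SE 0.16, adjusted p = 0.529 in limma over all probes).

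Apobec3 encodes a cytidine deaminase that mutates retroviral DNA, and it was the only one of the 10 genes with a lower mean in L1-Tg mice. Log2 signals were 3.73, 3.58 and 3.56 in L1-Tg pools and 3.70, 5.32 and 3.62 in WT pools. A single pool, WT replicate 2, was high, and the other 5 pools lay between 3.56 and 3.73. The difference, -0.59 (log2, SE 0.45, 95% interval -1.68 to 0.50, adjusted p = 0.682 in limma), was -0.03 without WT replicate 2. That pool stood above all others by at least the same 1.59 at 269 of 29441 probes, or 0.914%, while on the other arrays this occurred at 3 to 41 probes. WT replicate 2 also had the highest summed level of the T, NK and B lymphocyte markers, 239 against 102 to 164 in the other WT pools and 91.2 to 109 in L1-Tg pools, in units of the 75th percentile, and Cd4 made up most of this sum. The part of these in the Apobec3 value was not tested. In WT replicate 2 the Cd4 probe read 7.76, where the hepatocyte marker Hnf4a read 7.61, and whether it reports lymphocytes was not tested. The second Apobec3 probe was not well above background on any array.

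**Figure D3:**
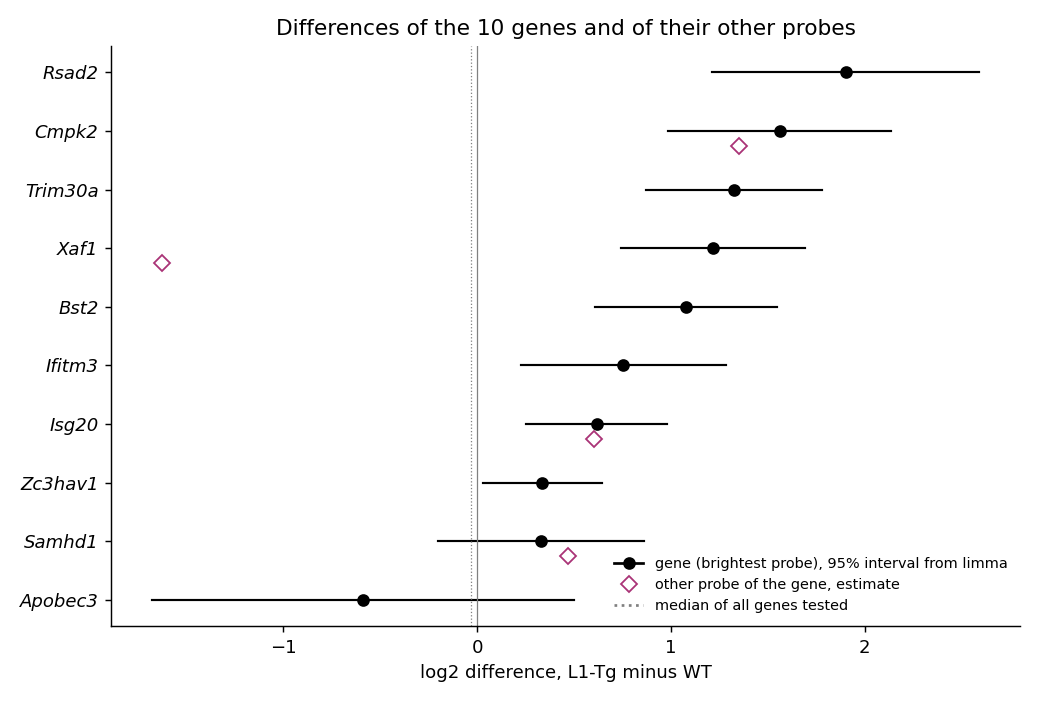
Log2 difference, L1-Tg minus WT, of the 10 genes (black points, with 95% intervals from limma, n = 3 pools per group) and of their other probes (open diamonds, estimates), with a dotted line at the median of all genes tested, -0.03. The intervals of 8 genes lie above 0, those of Samhd1 and Apobec3 span it, and the second Xaf1 probe lies at -1.63.

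Measured against the WT mean, the median of the 10 genes was 0.84, 0.71 and 1.13 in L1-Tg replicates 1, 2 and 3, and -0.30, 0.09 and 0.16 in WT replicates 1, 2 and 3 (log2). L1-Tg replicate 3 was the highest L1-Tg pool for 7 of the 10 genes, and WT replicate 1 was the lowest WT pool for 5. All 6 arrays were on 1 slide scanned once, with WT arrays in row 1 and L1-Tg arrays in row 2, so slide row and genotype cannot be told apart. Each slide column held 1 array of each genotype. Within the columns, the L1-Tg value exceeded the WT value in all 3 columns for the same 8 genes. The differences ran from 2.21, 2.05 and 1.45 for Rsad2 to 0.18, 0.22 and 0.62 for Zc3hav1. Their direction follows from the lack of overlap in these 8 genes, so it is no separate check of slide position. For Samhd1 the L1-Tg value was lower in column 2, by -0.13, and for Apobec3 the columns gave 0.04, -1.75 and -0.05.

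Beyond Cmpk2, the genes of the 10 whose pattern over the 6 arrays was most like that of Rsad2 were Xaf1 (r = 0.958, rank 61 of 22318) and Trim30a (r = 0.955, rank 65). They were followed by Bst2 (r = 0.887), Ifitm3 (r = 0.844), Isg20 (r = 0.822), Zc3hav1 (r = 0.714) and Samhd1 (r = 0.643), and Apobec3 stood at r = -0.419. Of the 5 most alike among all other genes tested, 3 had a symbol: Hnrnpu, an RNA-binding protein (r = 0.992), Gprc5a, an orphan receptor (r = 0.989), and Clcf1, a cytokine (r = 0.988). Their log2 differences were 0.18, 0.82 and 0.44, with adjusted p-values in limma of 0.577, 0.204 and 0.341. With 6 arrays in 2 groups, a gene that separates the groups scores high on this measure.

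Related antiviral genes that are not among the 10 were described from a list of 31, of which 26 had a matched probe and 19 were tested. None of the 19 passed the adjusted threshold in limma. At an unadjusted p under 0.05, 8 were higher and 0 lower (42.1%), where 4.51% of all genes tested were higher and 4.38% lower. Groups did not overlap for 10 of the 19 (52.6%), all higher, where 7.21% of all genes tested were apart in that direction and 15.9% in either. The median log2 difference of the 19 was 0.34. Trim30d, a paralog of Trim30a, was at 0.10, -0.33 and -0.03 in L1-Tg pools and at -1.59, -1.58 and -0.74 in WT pools, with a difference of 1.21 (SE 0.26, adjusted p = 0.327 in limma). Samd9l, which restricts poxviruses, differed by 0.97, Parp12, a zinc finger relative of ZAP, by 0.71, Trim34a by 0.63 and Aen, an exonuclease related to ISG20, by 0.53. The highest value was that of Ifitm6, 1.23 (SE 0.40), and the lowest that of Ifitm1, -0.16 (SE 0.15). Thus members of the IFITM family stood at both ends of the range, and Ifitm2 lay at 0.04 (SE 0.11). Rsad1 and Cmpk1, which share the name stems of the pair, lay at 0.05 (SE 0.15) and 0.01 (SE 0.10). How closely they are related to the pair was not examined.

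Genes of interferon signaling and its feedback were all on the array, and 23 of 23 were tested. Of these, 0 passed the adjusted threshold in limma. At an unadjusted p under 0.05, 6 were higher and 1, Jak1, was lower (30.4%), where 8.89% of all genes tested passed in either direction. Groups did not overlap for 12 (52.2%), 9 higher and 3 lower, where 15.9% of all genes tested did not overlap. Tlr3, counted among the 9, was well above background on only 5 of the 6 arrays, so its difference rests partly on values near background. The median log2 difference of the 23 was 0.16. Usp18, a protease that damps the interferon receptor, was at 3.79, 3.58 and 4.25 in L1-Tg pools and at 2.02, 2.50 and 2.70 in WT pools, with a difference of 1.47 (SE 0.24, adjusted p = 0.199 in limma). The sensors of viral RNA differed by 0.58 (Rigi), 1.06 (Dhx58) and 0.98 (Ifih1), and Zbp1, a sensor of Z-form nucleic acid, by 1.13. Irf7, which drives interferon genes, had the highest difference, 1.66, with an SE of 0.61, and WT replicate 3 (3.19) lay within the L1-Tg values (3.50, 3.02 and 3.68) while the other WT pools were at 0.80 and 1.22. The lowest was Socs3 at -0.32 (SE 0.35).

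Enzymes of the nucleotide pool, which make or consume the substrates of CMPK2 and SAMHD1, numbered 24, of which 22 were tested. Here 0 passed the adjusted threshold in limma, and the median log2 difference was 0.04. At an unadjusted p under 0.05, 1 was higher and 1 lower (9.09% together), close to the 8.89% of all genes tested. The lower gene was Tk1, the cytosolic thymidine kinase, at 3.01, 3.11 and 2.99 in L1-Tg pools and 3.57, 3.55 and 3.48 in WT pools (difference -0.50, SE 0.09, adjusted p = 0.240 in limma). The higher gene was Dck, deoxycytidine kinase, at -2.69, -2.90 and -2.62 against -3.07, -3.44 and -3.77 (difference 0.69, SE 0.19, adjusted p = 0.456 in limma), which was also the highest of the list. The lowest was Tyms, thymidylate synthase, at -0.60 (SE 0.42).

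Known partners of viperin, ZAP, XAF1 and ISG20 numbered 20, and all 20 were tested. None passed the adjusted threshold in limma, and the median log2 difference was 0.03. At an unadjusted p under 0.05, 1 was higher and 0 were lower (5%), where 8.89% of all genes tested passed in either direction. Groups did not overlap for 30%, 4 higher and 2 lower, where 15.9% of all genes tested did not overlap. The higher one was Exosc7, a subunit of the RNA exosome, by 0.25 (SE 0.10). The range ran from Hadha, a subunit of the mitochondrial trifunctional protein of fatty acid oxidation, at -0.25 (SE 0.12), to Fdps, farnesyl diphosphate synthase, at 0.41 (SE 0.62).

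**Figure D4:**
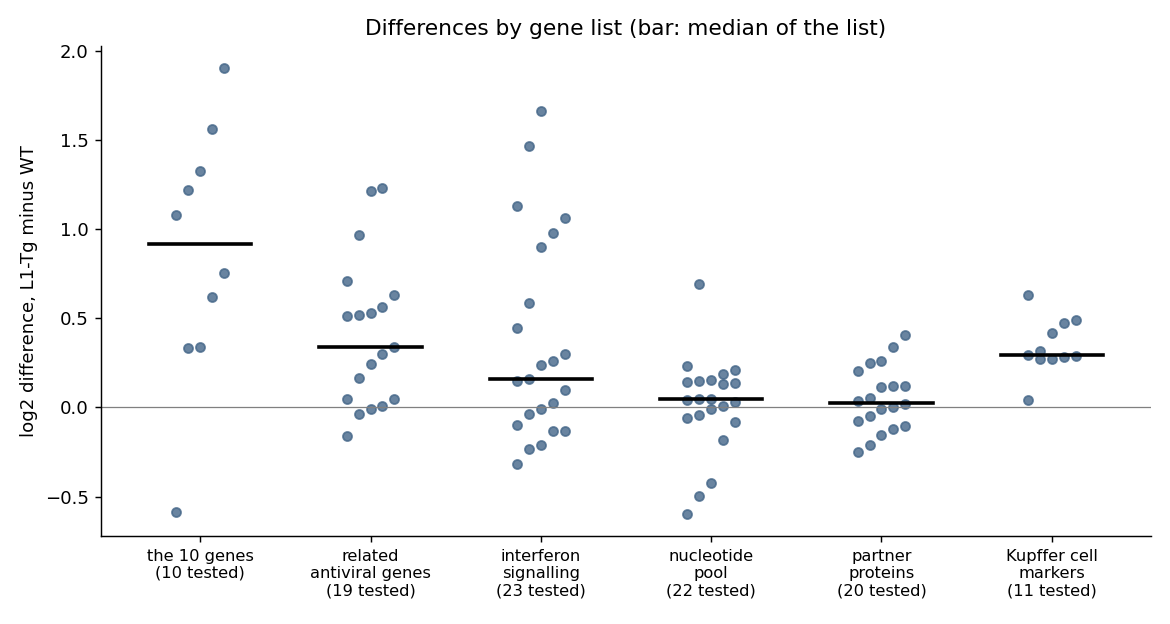
Log2 difference, L1-Tg minus WT, of each tested gene (points) of the 10 genes, of 4 gene lists and of the Kupffer cell markers, with a bar at the median of each. The medians stand at 0.92, 0.34, 0.16, 0.04, 0.03 and 0.30, in the order drawn.

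In bulk liver, a change in the number of cells of a type and a change in RNA per cell cannot be told apart. All 10 hepatocyte markers were well above background, with summed levels of 6436 to 7741 in L1-Tg and 6882 to 7926 in WT pools, in units of the 75th percentile. Apoa2 and Alb made up 46.5% of the sum. Of the 10 markers, 2 had a higher and 8 a lower mean in L1-Tg mice. Their median log2 difference was -0.11, and -0.01 with quantile normalization. Groups did not overlap for 1 (10%, where 15.9% of all genes tested did not overlap). This was Apoa1, at -0.49 (SE 0.18, adjusted p = 0.530 in limma). Of 12 markers of Kupffer cells and macrophages, 11 had a matched probe, and all 11 had a higher mean in L1-Tg mice, by a median of 0.30 on the log2 scale, with 0 at an unadjusted p under 0.05 in limma. Their summed level was 196, 166 and 181 in L1-Tg pools and 105, 139 and 194 in WT pools. WT replicate 3 thus lay within the L1-Tg range, and its Rsad2 value of 0.86 lay below all L1-Tg values. Within WT mice, Rsad2 and this sum had the same order of pools, and within L1-Tg mice the opposite order.

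**Figure D5:**
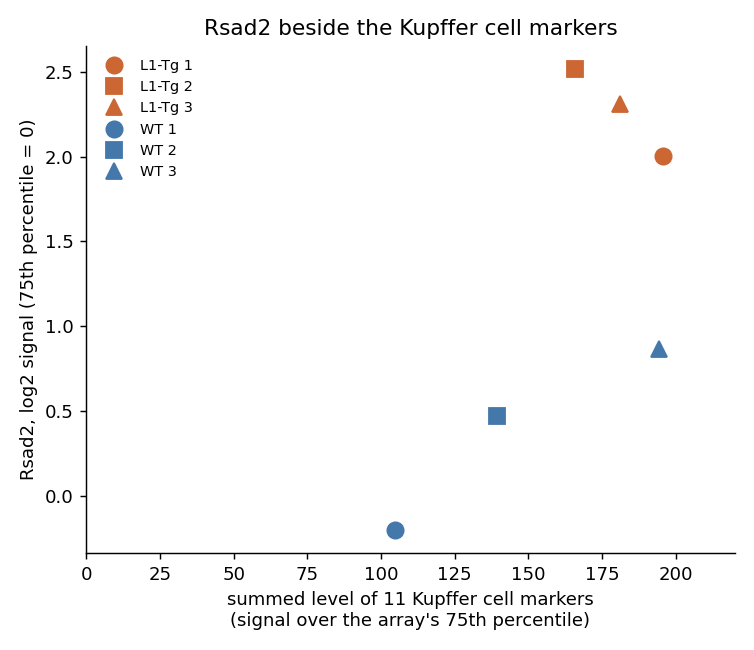
Log2 signal of Rsad2 (vertical axis, relative to the array's 75th percentile) against the summed level of 11 Kupffer cell markers (horizontal axis, signal over the 75th percentile) in the 6 pools. WT replicate 3 (blue triangle) has a marker sum of 194, inside the L1-Tg range of 166 to 196, and a Rsad2 value of 0.86 below the L1-Tg values.

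The other cell type lists are given both by the log2 differences of their members and by summed level, because 1 or 2 bright probes make up most of some sums. The hepatocyte marker Hnf4a had mean log2 signals of 7.46 in L1-Tg and 7.59 in WT pools. Beside it stood Siglech (8.02 and 8.21), Csf3r (7.37 and 7.61), Cd4 (6.41 and 7.12) and Pacsin1 (5.75 and 6.33). Whether probes this bright in bulk liver report the named cells was not tested. Of 7 tested markers of neutrophils and monocytes, 5 had a higher mean in L1-Tg mice, with a median log2 difference of 0.76. S100a8 (0.99, SE 0.43), Mpo (0.92, SE 0.50), S100a9 (0.87, SE 0.44) and Chil3 (0.76, SE 0.30) were on this side, with adjusted p-values in limma of 0.564, 0.617, 0.601 and 0.554. The summed level was nevertheless 178 to 197 in L1-Tg and 210 to 258 in WT pools, since Csf3r, at -0.24, made up 86.0% of it and Elane, at -0.71, most of the rest. Cxcr2 was not well above background on any array. Mpo and Ccr2, both counted among the 5, were so on only 4 and 5 of the 6 arrays, so their differences rest partly on values near background.

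For plasmacytoid dendritic cells, 5 of 8 markers had a higher mean in L1-Tg mice, and the median log2 difference was 0.33. Both figures include Bst2, itself 1 of the 10 genes. Without Bst2, the middle value of the other 7 markers was that of Ccr9, 0.12 (SE 0.20). Ly6d was at 1.93, 0.55 and 1.73 in L1-Tg pools and at -0.41, -0.54 and -0.07 in WT pools, with no overlap and a difference of 1.74 (SE 0.37, adjusted p = 0.327 in limma). Klk1 differed by 0.84 (SE 0.55) and Cox6a2 by 0.53 (SE 0.20), while the bright Siglech probe was at -0.19 (SE 0.09). Without Bst2 the summed level was 312 to 335 in L1-Tg and 346 to 466 in WT pools, and Siglech and Pacsin1 (-0.58, SE 0.40) made up 98.9% of it. Of 10 tested lymphocyte markers, 6 had a higher mean in L1-Tg mice, with a median of 0.36, while Cd4 (-0.71, SE 0.33) made up 86.6% of a sum of 91.2 to 109 in L1-Tg and 102 to 239 in WT pools. Cd8a (0.90, SE 0.60) and Cd79a (0.36, SE 0.15), both counted among the 6, were well above background on only 3 and 5 of the 6 arrays. With the normexp background correction the medians of these 3 lists became 0.10, 0.11 (with Bst2) and 0.05, in the order given.

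All 3 tested erythroid markers had a higher mean in L1-Tg mice, by 0.24 to 0.29 (log2). Their summed level was 201 in L1-Tg replicate 2, the pool with the highest Rsad2 value, and 97.6 to 115 in the other 5 pools. Summed levels in L1-Tg and WT pools were 106 to 109 and 100.9 to 110 for sinusoidal endothelial cells, 49.2 to 66.3 and 54.0 to 66.6 for stellate cells and fibroblasts, and 1.55 to 2.20 and 1.51 to 2.07 for cholangiocytes. The median log2 differences of these 3 lists were 0.08, -0.05 and -0.36. The part of these cell types in the values of the 10 genes was not tested.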

How the data were processed

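Cy3 signals of liver RNA were analysed on 6 arrays, grouped by the genotype in their labels. The authors scanned the arrays and ran Agilent Feature Extraction 10.10.1.1 (probe annotation mm9). The deposited processed signal is an intensity on the linear scale, background-subtracted within each array and not scaled between arrays. The authors also deposited normalized intensities, which equal these times 1 factor per array (2.46 to 2.98), with the rule for the factor not given in the sources used here. Of 62976 spots, 3671 were controls and were left out, and 1 to 22 non-uniform spots per array were set as missing. The log2 signal minus that of the 75th percentile (296 to 378) was used, and between 53.1% and 59.2% of spots were well above background. Across genes, r was 0.985 to 0.994 within and 0.979 to 0.992 between groups. The number of arrays limits the precision.

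For each gene the probe of the highest mean was taken, and if it was well above background throughout L1-Tg or throughout WT arrays the gene entered a fit in limma 3.58.1 under R 4.3.3 (lmFit, eBayes, two-sided, Benjamini-Hochberg over all genes, threshold 0.05). This passed 29 genes, 27 of them higher in L1-Tg mice. Nothing in the labels says which mice went into which pool, so p-values measure the spread between pools. Of 28685 probes with RefSeq names, 27235 were matched to a symbol. Promoters come from a RefSeq table for GRCm38.p6, read with Python and pandas, and figures were drawn with matplotlib. In simulated data with these spreads, 69% of genes changed by 1 on the log2 scale and 85% of those changed by 2 were passed, with 7 false genes among 161.

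The 10 genes, the gene lists, the marker lists and the tests were chosen with earlier results of these data known. By the naming rule, all 10 genes are given with every array and probe, each gene list by up to 5 genes with the smallest unadjusted p under 0.05 and by both ends of its range, the 5 genes most like Rsad2, and 3 neighbours on each side of the pair. Jak1, Rsad1, Cmpk1 and Ifitm2 were named after their values were seen. The alternatives were 4 other scalings or sources of values, a normexp background correction (offset 50), 2 filters on dim probes, the mean of all probes, leaving out each array, the replicate number as a block, an ordinary t-test with equal variances, and an index above 1. A fit with 1 value per probe was added after the data were seen. The main test had no replicate block.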

Additional observations from a re-analysis of the deposited data

How the results depend on the processing

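The signs and the adjusted calls of the 10 genes were the same in 159 alternative values, and the 1 exception was Xaf1, at -0.20 with the mean of all probes. In every alternative 0 of the 10 passed the adjusted threshold, and the lowest adjusted p was 0.0563, for Trim30a, with Rsad2 at 0.0596. The median difference of the 10 genes was 0.68 with the mean of all probes and 0.73 to 1.06 with 1 array left out. With an array left out, 7 to 9 had an unadjusted p under 0.05, 8 to 9 did not overlap and 8 to 9 passed the index, and the difference of Rsad2 minus that of Cmpk2 was 0.28 to 0.39. The Apobec3 difference ran from -0.89 to -0.03, the latter without WT replicate 2. Among all genes, 29 passed, and this became 10 with no filter on dim probes, 19 with the mean of all probes, 0 with the ordinary t-test, 11 with the replicate block, and 15 to 36 with 1 array left out (L1-Tg arrays 1, 2 and 3 gave 17, 15 and 15 when left out, WT arrays 17, 15 and 36). Same-numbered pools did not deviate together (r = -0.157, 0.111 and 0.0185), so the numbers were not taken as pairs. The replicate block left 0 of the 10 passing after adjustment and 7 before. Scaling by the array median moved the median of all genes to 0.08, with 14776 genes higher and 7561 lower, where the main scaling gave 9573 and 12764, no scaling 12271 and 10066, the deposited normalized values 11977 and 10360, and quantile normalization 11511 and 10826. Against the median of all genes, the 10 genes stayed at 0.92 to 0.98 under every scaling tried. Probes near background limit what can be read from the second probes of Xaf1 and Apobec3.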
